A study of Mus musculus with 9 samples.

Results

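The Hox genes are described here as a family, by cluster and by position within the cluster. Members were the rows whose Ensembl identifier carries, in the GENCODE vM21 annotation, a protein-coding symbol made of Hoxa, Hoxb, Hoxc or Hoxd and a number from 1 to 13, with no opposite-strand genes. Of the 39 mouse Hox genes, 38 were found among the 37224 genes of the table: 11 of 11 in Hoxa, 10 of 10 in Hoxb, 9 of 9 in Hoxc and 8 of 9 in Hoxd. Hoxd4 had no row under its name and is taken up with Hoxd3. All but Hoxb1 passed the filter on low counts, so 37 members were tested.

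From C57BL/6 mice, 3 kinds of cells were profiled by strand-marked sequencing of total RNA, with 3 libraries each. MEF were primary fibroblasts of E13.5 embryos at passage 0, detached with trypsin and not sorted. Their labels also mention a shift to a medium that induces neurons, without saying whether it came before RNA extraction. iGABA cells were fibroblasts of the same passage, 14 days in vitro into conversion toward GABAergic interneurons, with 2 of those days in fibroblast medium, then sorted for GFP. The study is known to have converted fibroblasts by introducing transcription factors of the developing forebrain. GAD67 cells were cortical interneurons of E18.5 mice, not cultured according to the labels, and also sorted for GFP. Any difference between MEF and the other groups therefore coincides with sorting, and the culture and age of the cells differed as well. These cannot be told apart from cell type. Nothing in the labels ties a replicate to its own culture or animal. The p-values therefore reflect the spread among these libraries alone, and that spread may be technical.

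Hox genes encode homeodomain transcription factors that give cells along the body axis their positional identity. They lie in clusters in which the order of the genes matches the order of their expression: low-numbered (anterior) genes are switched on early and reach far forward, into the hindbrain, and high-numbered (posterior) genes are switched on late and are limited to the tail end, the distal limbs and the genital region. Fibroblasts keep a Hox pattern typical of the body site they came from, whereas the forebrain, where cortical interneurons are born, lies ahead of the Hox domains. Genes with the same number in different clusters are paralogues with related functions. Paralogues 1 to 4 are called anterior below, 5 to 8 central and 9 to 13 posterior.

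Library totals ran from 27501521 to 38975523 counts. Summed over each list, the defining markers went with the labels, though single markers did not all do so. Summed over 12 fibroblast markers, libraries stood at 82665 to 91624 normalised CPM, which are counts brought to a common library total, in MEF, 1024 to 1397 in iGABA and 254 to 266 in GAD67. Summed over 12 cortical interneuron markers, they stood at 11.98 to 13.4, 692 to 704 and 5160 to 5480 CPM. Over 10 pan-neuronal markers the sums were 108 to 111, 915 to 936 and 8370 to 8849 CPM. The interneuron marker Erbb4 and the pan-neuronal marker Stmn2 were lower in iGABA than in MEF. All 12 interneuron markers and 8 of the 10 pan-neuronal ones were lower in iGABA than in GAD67. The interneuron list holds forebrain transcription factors, and transcripts of introduced factors were not separated from the cells' own. These are bulk samples, in which fewer cells of a type and less RNA per cell cannot be told apart.

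Hox transcripts were abundant in MEF, more abundant in iGABA and close to absent in GAD67. The 38 members together gave 592.5, 578.9 and 597.4 CPM in the MEF libraries, 740.5, 789.7 and 740.6 CPM in iGABA, and 1.20, 1.99 and 0.791 CPM in GAD67. The 3 groups did not overlap. The mean sum was 1.28 times as high in iGABA as in MEF, and 444 times as high in MEF as in GAD67. With library size alone as the scaling, the sums were 508.6 CPM in MEF and 871 CPM in iGABA. A group mean of at least 10 CPM was reached by 19 members in MEF, by 24 in iGABA and by none in GAD67, where no member had a mean of 0.5 CPM.

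**Figure D1:**
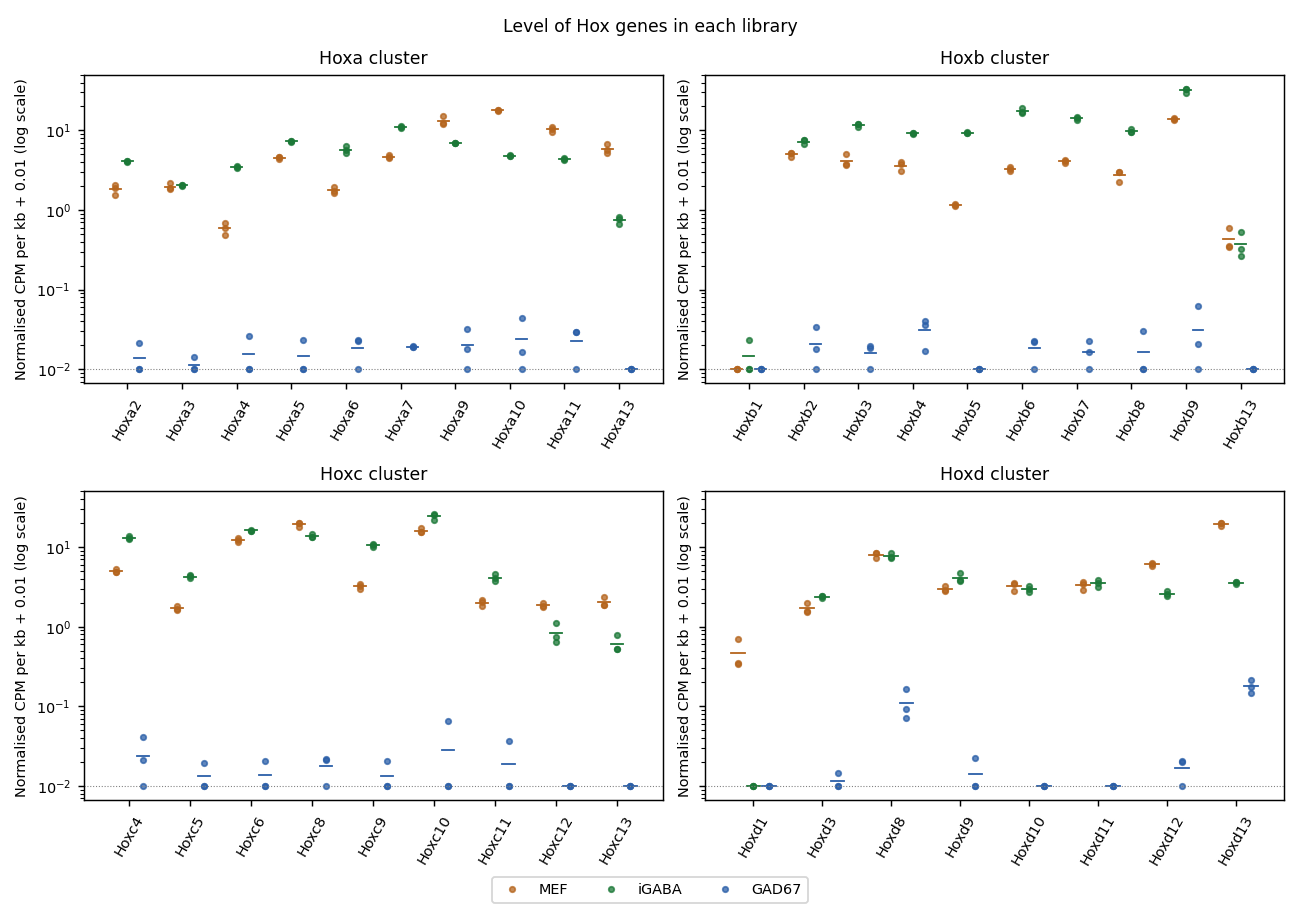
Normalised CPM per kb of exon (plus 0.01, log scale) of Hox genes by cluster and paralogue number. Points are the 3 libraries of MEF, iGABA and GAD67, horizontal bars are group means and the dotted line marks 0 counts. GAD67 points lie at or near that line for every gene drawn, with the highest at Hoxd13 and Hoxd8, while MEF and iGABA points cross over within the Hoxa, Hoxc and Hoxd clusters.

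Levels of different genes are compared per kb of exon. In MEF the order was led by Hoxd13, a gene of digits and genitalia, at 19.6 ± 1.24 CPM per kb (SD, n = 3). Hoxc8 at 19.4 ± 1.13 and Hoxa10 at 17.9 ± 0.287 CPM per kb followed, and the first 2 of these differed by less than their spread. In iGABA the order was led by Hoxb9 at 32.0 ± 2.17 CPM per kb, ahead of Hoxc10 at 24.3 ± 2.21 and Hoxb6 at 17.5 ± 1.22 CPM per kb. Hoxd13 was 26th there, at 3.52 CPM per kb, and Hoxb9 had been 5th in MEF, at 13.9 CPM per kb. Over the 37 members with a count in MEF, levels per kb in MEF and iGABA had a Spearman rho of 0.53, a description over genes that share libraries and scaling. Replicates were close together: the median coefficient of variation of a member was 8.06% in MEF and 5.38% in iGABA.

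The comparison of iGABA with MEF set Hox levels in sorted cells under conversion beside those of unsorted fibroblast cultures. It does not follow the same cells over time. Most central and anterior genes rose, 5 of the 6 genes with paralogue numbers 12 and 13 fell, and so did Hoxd1. Of 37 members tested, 32 changed: 21 rose and 11 fell (edgeR quasi-likelihood test, Benjamini-Hochberg adjusted p under 0.05). Over all 18085 genes tested, 81.9% changed, 42.1% upward and 39.7% downward, so the number of members that changed is near the background. A rise of at least 2-fold was found for 15 members, against 23.9% of all genes, and a fall of at least 2-fold for 9, against 23.8%. Libraries of MEF and iGABA did not overlap for 32 members, against 84.9% of all genes. The median log2 fold change was 0.48 over members and 0.05 over all genes. Scaling by library size alone moved the median of all genes to 0.46 and that of the members to 0.90, and with it 34 members changed, 24 upward and 10 downward. Over all genes that scaling gave 9941 rises and 5283 falls in place of 7618 and 7188.

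By position in the Hox clusters, 7 of 10 tested anterior genes rose, 2 fell and 1 did not pass, with a median log2 fold change of 0.83. Of 11 central genes 9 rose, 1 fell and 1 did not pass (median 1.32). Of 16 posterior genes 5 rose, 8 fell and 3 did not pass (median -0.57, or -0.15 with library size alone). Within the posterior class, of the 6 genes numbered 12 or 13, 5 fell and 1 did not pass (median -1.48), whereas the 6 numbered 10 or 11 had 2 that rose, 2 that fell and 2 not passed. Of the 23 genes numbered 2 to 9, 19 rose, 2 fell and 2 did not pass. These cut points were chosen with the values known, and counts over members are a description.

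**Figure D2:**
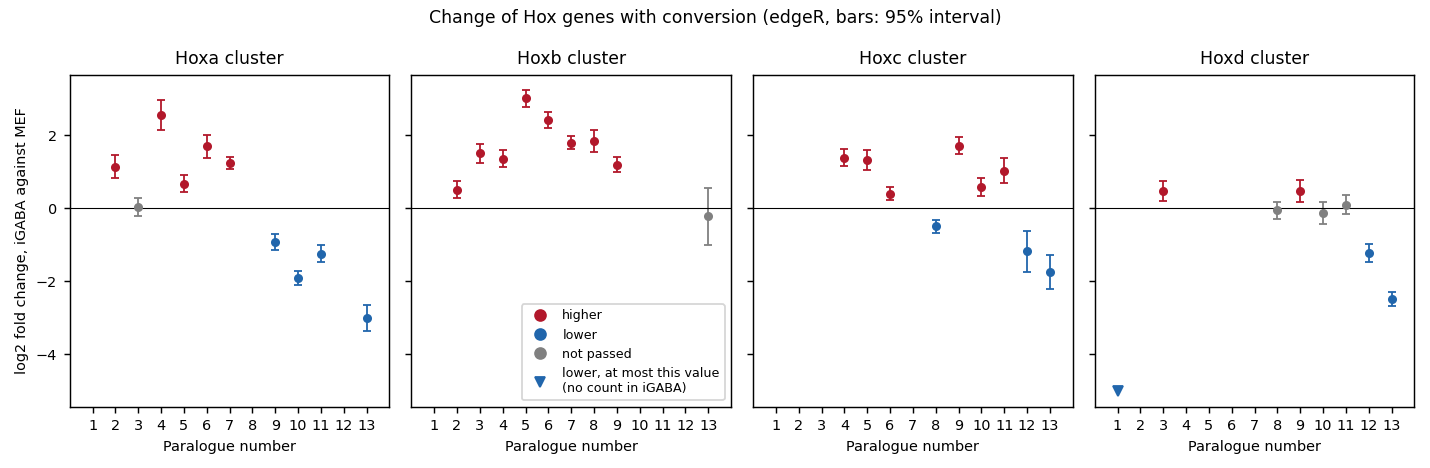
Log2 fold change of iGABA against MEF for tested Hox genes, plotted by paralogue number in the 4 clusters, with 95% intervals from the edgeR fit. The triangle for Hoxd1 marks an upper bound, since no iGABA library had a count. Red points (rose) fill numbers 2 to 7 of Hoxa, 2 to 9 of Hoxb and most of Hoxc up to 11, with Hoxa3 the exception in grey and Hoxc8 in blue. Blue points (fell) lie at Hoxd1, Hoxc8 and the high numbers. Hoxb13, Hoxd8, Hoxd10 and Hoxd11 are grey, and the direction of the first 3 of these turned over with library size alone.

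The clusters differed in their share of all Hox CPM. Hoxb rose from 19.5% ± 0.759 of Hox CPM in MEF to 43.3% ± 0.0759 in iGABA (SD, n = 3), and its sum from 115 ± 6.21 to 327 ± 11.8 CPM. Hoxa went from 34.3% ± 0.514 to 18.8% ± 0.342, and Hoxd from 22.1% ± 0.780 to 11.4% ± 0.216. Hoxc stayed nearer its share, at 24.1% ± 0.495 and 26.5% ± 0.275. In each of the 4 the groups did not overlap. No scaling between libraries enters these shares.

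By paralogue number the make-up shifted from posterior to central. Posterior genes held 57.8% ± 0.881 of Hox CPM in MEF and 36.1% ± 0.827 in iGABA. Central genes went from 27.4% ± 0.615 to 40.9% ± 0.354, and anterior genes from 14.8% ± 0.753 to 23.0% ± 0.502. Posterior genes were thus the largest class in MEF, and central genes in iGABA. Paralogue 13 had the steepest loss among numbers 2 to 13, from 11.7% ± 0.900 to 1.70% ± 0.0188, or from 69.2 ± 5.13 to 12.8 ± 0.418 CPM. Paralogue 5 had the steepest gain, its summed level going from 16.7 ± 0.512 to 52.3 ± 1.22 CPM, 3.13 times as high. Paralogue 9 was the largest group in iGABA, with 18.6% ± 0.527, and paralogue 10 in MEF, with 18.3% ± 0.340.

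**Figure D3:**
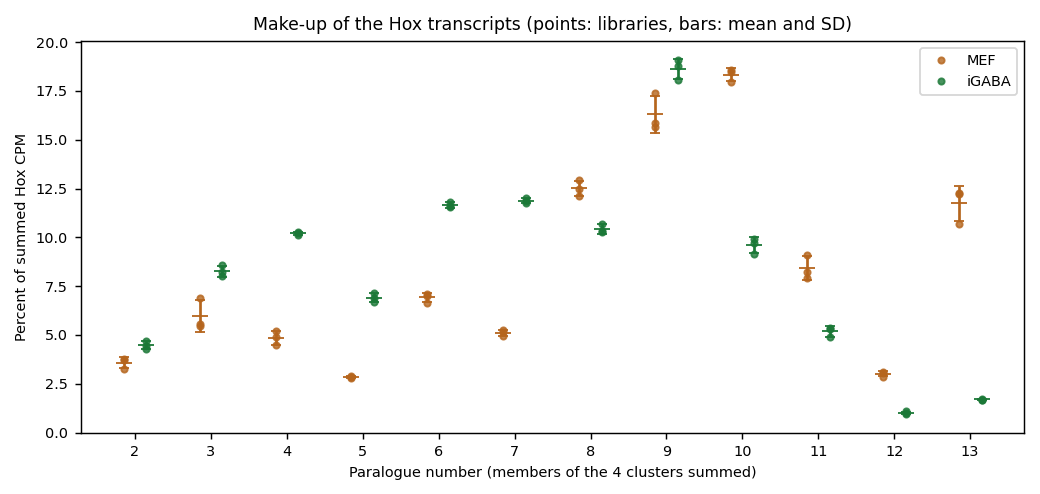
Percent of summed Hox CPM held by paralogue numbers 2 to 13, members of the 4 clusters added together, in MEF and iGABA libraries. Points are libraries and bars the mean and SD of 3. Numbers 8 and 10 to 13 hold less in iGABA (paralogue 13 goes from 11.7% to 1.70%), and numbers 2 to 7 and 9 hold more.

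In the Hoxa cluster (mm10, chromosome 6, minus strand) the change turned over between Hoxa7 and Hoxa9. Genes numbered 2 and 4 to 7 rose, those numbered 9 to 13 fell, and Hoxa3 did not pass. The median log2 fold change over the cluster was 0.05.

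Hoxa4, a gene of the cervical spine, stood at 0.769, 0.921 and 1.09 CPM in MEF and at 5.44, 5.76 and 5.35 CPM in iGABA. All iGABA libraries were far above all MEF libraries. The log2 fold change was 2.56 (SE 0.19; edgeR quasi-likelihood test, Benjamini-Hochberg adjusted p = 4.57e-08), the steepest rise of the cluster. Hoxa7, a gene of the thoracic spine and the highest of the cluster per kb in iGABA, rose from 14.3, 12.8 and 13.3 CPM to 32.1, 32.6 and 31.2 CPM (log2 fold change 1.25, SE 0.08). In the table, 20.4% of the exon bases of Hoxa7 are shared with Hoxaas3 on the other strand, which stood at 0.645 ± 0.0717 CPM in MEF and 1.08 ± 0.166 in iGABA. The other risers were Hoxa6 (log2 fold change 1.70), Hoxa2 (1.15), which patterns the second pharyngeal arch and the hindbrain, and Hoxa5 (0.68), a gene of lung and neck. Hoxa3 averaged 12.9 CPM in MEF and 13.3 CPM in iGABA, a log2 difference of 0.05 (95% interval -0.20 to 0.30) that was -0.0024 without MEF replicate 3. With library size alone it was called, at 0.47. Hoxa3 shares 27.9% of its exon bases with other genes, 1644 bases on the opposite strand and 482 on its own. The opposite-strand genes in its span include Hoxaas2 and Gm15050, which fell.

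The falling Hoxa genes were abundant in MEF. Hoxa9, known for its part in blood stem cells and leukaemia, stood at 52.4, 43.5 and 42.2 CPM in MEF and at 23.9, 24.6 and 23.9 CPM in iGABA. Hoxa10, a gene of the lumbar spine and the uterus, stood at 67.8, 68.6 and 69.9 CPM in MEF and at 18.2, 18.3 and 18.7 CPM in iGABA. Hoxa11, which shapes the forearm and lower leg, stood at 25.4, 29.8 and 27.8 CPM in MEF and at 11.3, 12.1 and 11.9 CPM in iGABA. For these 3 genes each iGABA library was below each MEF library, with log2 fold changes of -0.93 (SE 0.10), -1.90 (SE 0.09) and -1.24 (SE 0.11). Hoxa11 shares 38.6% of its exon bases with Hoxa11os on the other strand, and the ratio of Hoxa11 to Hoxa11os counts did not differ beyond its spread, at 1.30 ± 0.136 in MEF and 1.30 ± 0.0889 in iGABA (SD, n = 3).

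Hoxa13, which acts in the hand and foot, the gut end and the genital tract, fell the most in the cluster. It stood at 12.9, 14.0 and 16.7 CPM in MEF, at 1.61, 1.86 and 1.97 CPM in iGABA and at 0 in each GAD67 library. iGABA libraries lay well below MEF libraries but each was above the 3-count limit that a count of 0 allows, 0.0717 to 0.0938 CPM. The log2 fold change was -3.01 (SE 0.16; edgeR quasi-likelihood test, Benjamini-Hochberg adjusted p = 9.68e-09), 8.03-fold lower. Measured within each library, and so without any scaling, there were 1.08 ± 0.176 counts of Hoxa13 per count of Hoxa7 in MEF and 0.0568 ± 0.00651 in iGABA.

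In the Hoxb cluster (chr11:96194316-96368256, plus strand) 8 of 9 tested genes rose (median log2 fold change 1.51), and Hoxb13 did not pass. Hoxb5, a gene of neural crest and foregut, stood at 3.11, 3.32 and 3.20 CPM in MEF and at 25.8, 26.0 and 26.7 CPM in iGABA, and had no count in GAD67. This log2 fold change of 3.02 (SE 0.10; edgeR quasi-likelihood test, Benjamini-Hochberg adjusted p = 2.66e-10), 8.13-fold, was the steepest rise of any member. Hoxb9, a gene of the rib cage, was the highest of the cluster per kb in both groups. It went from 36.0, 34.5 and 36.9 CPM to 84.8, 86.4 and 76.0 CPM, with no overlap and a log2 fold change of 1.20 (SE 0.09). Hoxb4, known for its use in expanding blood stem cells, was the highest of the cluster per kb in GAD67, on 10 counts there, with Hoxb9 nearly level. It rose from 16.5, 12.6 and 15.8 CPM in MEF to 37.9, 39.0 and 38.4 CPM in iGABA (log2 fold change 1.36, SE 0.11).

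The other genes from Hoxb2 to Hoxb9 rose by less than Hoxb5. Hoxb6 changed by 2.42, Hoxb7 by 1.80, Hoxb8 by 1.84, Hoxb4 by 1.36, Hoxb3 by 1.51 and Hoxb2 by 0.52 on the log2 scale. Hoxb7 and Hoxb8 share 1069 exon bases on the same strand, and reads there appear to have been counted for both, so their 2 values are not independent. Hoxb2 and Hoxb3 share 49.4% and 37.9% of their exon bases with other genes, mainly on the opposite strand. Hoxb13, known from the prostate and the tail bud, lies apart from the rest of the cluster. It stood at 0.732, 0.757 and 1.30 CPM in MEF and at 0.693, 1.15 and 0.563 CPM in iGABA, and the groups overlapped. Its log2 difference of -0.21 (95% interval -0.99 to 0.57) was 0.12 without MEF replicate 3 and 0.21 with library size alone. Hoxb1, a gene of a single hindbrain segment, had 1 count in all 9 libraries. A count of 0 over the MEF libraries allows up to 0.0330 CPM.

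In the Hoxc cluster (chr15:102921103-103036843, plus strand) 6 genes rose and 3 fell (median log2 fold change 0.60). Hoxc9, which sets the thoracic identity of spinal motor neurons, rose the most. It stood at 8.31, 7.80 and 7.31 CPM in MEF and at 24.3, 26.9 and 25.4 CPM in iGABA, with no overlap and a log2 fold change of 1.71 (SE 0.11). Hoxc10, a gene of lumbar motor neurons and the highest of the cluster per kb in iGABA, went from 29.3, 29.3 and 33.6 CPM to 47.7, 49.97 and 41.8 CPM (log2 fold change 0.60, SE 0.11). Hoxc4 (1.39), Hoxc5 (1.32), Hoxc11 (1.04) and Hoxc6 (0.41) rose as well. Hoxc10 and Hoxc11 thus rose where Hoxa10 and Hoxa11 fell.

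Hoxc8, a gene of the lower neck and upper trunk, was the exception among central genes. It stood at 46.0, 41.5 and 46.0 CPM in MEF and at 30.7, 33.8 and 30.4 CPM in iGABA, and the groups did not overlap. Its log2 fold change was -0.49 (SE 0.08), and with library size alone it was -0.08 and not called. Hoxc12 stood at 1.79, 1.88 and 2.05 CPM in MEF and at 0.643, 1.12 and 0.751 CPM in iGABA. Hoxc13, a gene of hair and nail, stood at 4.54, 5.82 and 4.62 CPM in MEF and at 1.26, 1.89 and 1.28 CPM in iGABA. Both were lower in every iGABA library than in any MEF library, by -1.18 (SE 0.26) and -1.75 (SE 0.21) on the log2 scale. Counts of Hoxc13 per count of Hoxc9 went from 0.642 ± 0.101 to 0.0575 ± 0.0111.

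The Hoxd cluster (chr2:74668310-74765143, plus strand) had 2 genes that rose, 3 that fell and 3 not passed; the median log2 fold change was -0.09, and 0.33 with library size alone. The falls lay at its 2 ends. Hoxd13, the main digit gene of the cluster, stood at 45.2, 50.5 and 50.5 CPM in MEF and at 8.93, 8.41 and 8.91 CPM in iGABA. The groups were far apart, and the log2 fold change was -2.48 (SE 0.09; edgeR quasi-likelihood test, Benjamini-Hochberg adjusted p = 1.44e-11), 5.57-fold lower. Hoxd12, its neighbour in digit patterning, stood at 15.2, 15.8 and 16.4 CPM in MEF and at 6.66, 7.43 and 6.35 CPM in iGABA, a log2 fold change of -1.21 (SE 0.11). Counts of Hoxd13 per count of Hoxd9 went from 7.54 ± 0.655 to 0.985 ± 0.154.

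Hoxd1, a gene of pain-sensing neurons, was the tested member with counts in MEF and none in iGABA. It had 17, 39 and 21 counts in the MEF libraries (0.622, 1.28 and 0.634 CPM) and none in the iGABA or the GAD67 libraries. Against 3 counts over the iGABA libraries it was at least 32.3-fold lower (edgeR quasi-likelihood test, Benjamini-Hochberg adjusted p = 5.33e-05). Hoxd1 passed the filter on low counts through MEF alone, so the direction of this call follows from the filter and is no separate support. Haglr, which starts on the other strand near the Hoxd1 start, stood at 1.11 ± 0.202 CPM in MEF and 0.229 ± 0.112 CPM in iGABA.

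In the middle of Hoxd, Hoxd8, Hoxd10 and Hoxd11 did not pass and Hoxd9 rose. Hoxd8, a trunk gene and the highest of the cluster per kb in iGABA, stood at 19.96, 22.8 and 23.2 CPM in MEF and at 20.7, 22.9 and 20.04 CPM in iGABA. The groups overlapped, with a log2 difference of -0.05 (95% interval -0.29 to 0.19), though it was 0.37 and called with library size alone. Hoxd10 and Hoxd11 differed by -0.13 (95% interval -0.43 to 0.17) and 0.10 (-0.16 to 0.36), and with library size alone by 0.29 and by 0.51, the latter called. Hoxd10 and Hoxd11 are genes of the lumbar cord and of the forearm and lower leg. Hoxd9 went from 6.48 ± 0.540 to 9.01 ± 1.22 CPM, a rise of 0.48 on the log2 scale.

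Hoxd3, a gene of the first neck vertebrae, stood at 11.5, 8.82 and 9.18 CPM in MEF and at 13.8, 13.4 and 13.9 CPM in iGABA. The groups did not overlap, and the log2 fold change was 0.48 (SE 0.13). The gene shares 35.8% of its exon bases with other genes, 1725 of them with a same-strand gene that has no symbol in vM21. That gene, ENSMUSG00000042464 (chr2:74721978-74729160), spans the RefSeq interval of Hoxd4, with all its exon bases in vM21 Hoxd4 exons. It had 215, 141 and 138 counts in MEF, 397, 396 and 315 in iGABA, and 1, 0 and 0 in GAD67, a log2 fold change of 0.81 between iGABA and MEF. It is given here by its place only and was not counted among the members.

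The promoter windows of 4 of these genes are shown because 3 of them mark the falling ends of the clusters (Hoxa13, Hoxd13 and Hoxd1) and the other, Hoxb8, the cluster with the most rises. Each is the 250 bases before the RefSeq start in GRCm38.p6, on the strand of the gene: Hoxa13 at chr6:52260881-52261130 (minus), Hoxd13 at chr2:74667975-74668224 (plus), Hoxd1 at chr2:74762730-74762979 (plus) and Hoxb8 at chr11:96281655-96281904 (plus). Capitals mark the motifs searched on both strands: the TATA box TATAAA, the box named CCAAT, the GC box GGGCGG, the motif of Hox with Pbx proteins TGATTNAT and the posterior Hox core TTTATG. Matches may overlap.
Hoxa13: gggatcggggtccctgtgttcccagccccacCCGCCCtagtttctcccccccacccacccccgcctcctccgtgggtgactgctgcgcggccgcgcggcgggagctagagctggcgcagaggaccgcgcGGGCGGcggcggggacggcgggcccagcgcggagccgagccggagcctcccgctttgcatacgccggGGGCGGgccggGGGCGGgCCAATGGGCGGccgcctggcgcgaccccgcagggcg
Hoxd13: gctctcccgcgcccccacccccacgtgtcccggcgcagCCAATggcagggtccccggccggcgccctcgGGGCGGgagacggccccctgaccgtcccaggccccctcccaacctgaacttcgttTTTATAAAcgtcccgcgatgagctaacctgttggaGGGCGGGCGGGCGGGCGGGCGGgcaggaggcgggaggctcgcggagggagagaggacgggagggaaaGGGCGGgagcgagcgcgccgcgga
Hoxd1: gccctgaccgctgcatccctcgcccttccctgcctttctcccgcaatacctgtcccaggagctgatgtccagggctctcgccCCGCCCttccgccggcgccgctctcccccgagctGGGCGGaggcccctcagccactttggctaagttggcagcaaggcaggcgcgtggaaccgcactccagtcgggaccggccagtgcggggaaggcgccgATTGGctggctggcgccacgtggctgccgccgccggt
Hoxb8: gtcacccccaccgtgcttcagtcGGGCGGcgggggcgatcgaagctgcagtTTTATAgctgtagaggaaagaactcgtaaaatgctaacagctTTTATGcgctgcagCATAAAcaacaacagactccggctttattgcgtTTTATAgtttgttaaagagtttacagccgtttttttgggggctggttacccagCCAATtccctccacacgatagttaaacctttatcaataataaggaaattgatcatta

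The windows of the 3 falling genes were dense in CpG, with 35 CpG and 80.0% G and C in Hoxa13, 31 and 74.4% in Hoxd13, and 24 and 71.6% in Hoxd1. That of Hoxb8 had 12 CpG and 44.4% G and C. It held 2 matches to the TATA box and 2 to the posterior Hox core, and the window of Hoxd13 held 2 to the TATA box and 7 to the GC box. RefSeq windows were found for 21 members (23 windows), and their median was 13 CpG, from 2 to 35, against 6 over all 32851 windows. The GC box was in 43.5% of Hox windows and 32.7% of all, CCAAT in 56.5% and 33.8%, the TATA box in 13.04% and 12.4%, the posterior Hox core in 17.4% and 10.8%, and the motif of Hox with Pbx in 8.70% and 2.82%. In this order the Hox shares are 10, 13, 3, 4 and 2 of 23 windows, too few to read a difference from. CpG density was not high in all falling genes or low in all rising ones: Hoxa5, which rose, had 28 CpG, and Hoxa9, which fell, had 3. A match is a description of the sequence and not a site of binding.

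Noncoding and opposite-strand transcripts of the clusters had 3 that rose, 6 that fell and 4 not passed among 13 tested in iGABA against MEF. All 13 were lower in GAD67 than in MEF, against 43.8% of all tested genes. Their summed level in GAD67 was 0.0847 to 0.265 CPM, so they passed the filter on low counts through MEF or iGABA. The shared direction in GAD67 follows in part from that filter. Beside the falling genes, Hottip, transcribed away from Hoxa13, stood at 1.20 ± 0.165 CPM in MEF and 0.0489 ± 0.0495 in iGABA, and the homeobox gene Evx2, next to Hoxd13, at 3.88 ± 0.566 and 0.200 ± 0.0947 CPM (log2 fold changes -4.43 and -4.30). Evx1, which lies beyond Hottip, stood at 0.513 ± 0.166 CPM in MEF and had no count in iGABA. Inside Hoxa, the opposite-strand genes Gm15050 and Hoxaas2 fell by 2.86 and 2.48 on the log2 scale. Their midpoints lie between those of Hoxa3, which did not pass, and Hoxa2, which rose. Hotair, a noncoding RNA on the other strand between Hoxc11 and Hoxc12, went the other way from Hoxc12: it rose from 0.584 ± 0.293 CPM to 3.999 ± 0.157 CPM (log2 fold change 2.77).

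**Figure D4:**
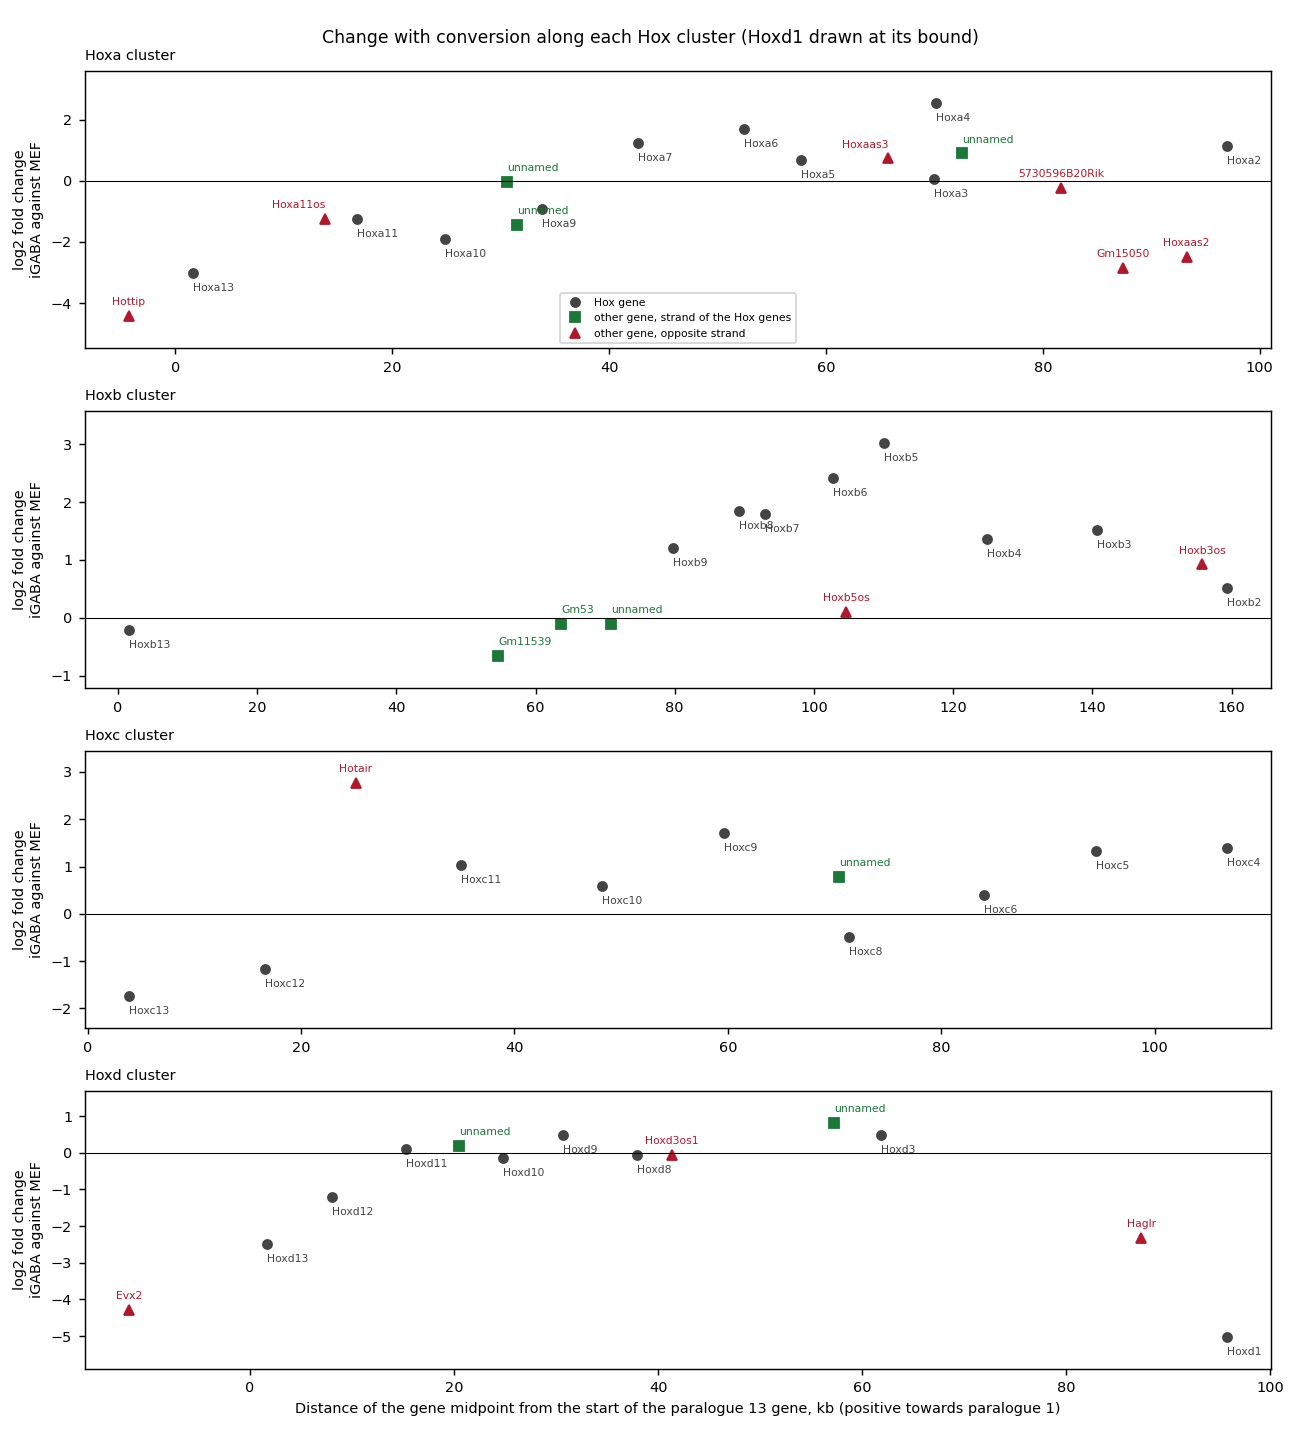
Log2 fold change of iGABA against MEF along each Hox cluster, by distance in kb from the start of the paralogue 13 gene toward paralogue 1. Circles are Hox genes, squares other genes on their strand and triangles opposite-strand genes, and Hoxd1 is drawn at its bound. Hottip lies below Hoxa13 and Evx2 below Hoxd13, and Hotair lies highest of Hoxc. Hoxb13, Hoxd8 and Hoxd10 changed direction with library size alone.

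Other groups of genes moved beside these members. All 10 limb and trunk position genes fell, with library sums of 1148 to 1206 CPM in MEF, 103 to 105 in iGABA and 2.33 to 4.07 in GAD67. Among them the forelimb gene Tbx5 went from 19.5 ± 0.359 to 6.99 ± 0.437 CPM and the hindlimb gene Tbx4 from 22.9 ± 0.604 to 4.30 ± 1.30 CPM. MEF also held transcripts of other cells: summed immune markers (8 of 8 lower in iGABA) stood at 425 to 455 CPM in MEF and 11.1 to 13.2 in iGABA, with C1qa at 0 in iGABA. Skeletal muscle markers (7 of 7 tested lower) stood at 138 to 145 and 8.03 to 12.7 CPM, with Myog at 0. Endothelial markers (5 lower, 3 not passed) stood at 236 to 254 and 2.25 to 4.82 CPM. Cdh5 and Tie1 were at 0 in iGABA, and Cldn5 was at 0 in MEF. Although the endothelial sum in GAD67 was only 14.6 to 53.6 CPM, 4 of these markers were higher there than in MEF. Only Flt1 was lower in GAD67, and 3 did not pass. The endothelial sum in MEF therefore does not stand for the list as a whole. Red blood cell markers were at or near 0 in both groups (5 tested, 5 not passed) and summed to 18.7 to 48.1 CPM in GAD67. The part of these cells, or of the site a fibroblast came from, in the fall of the posterior Hox genes was not tested. The summed fibroblast markers of the opening were far lower in iGABA than in MEF, and the Hox sum was higher. Fewer fibroblasts and lower marker levels per cell cannot be told apart here. The source of the Hox transcripts in iGABA was not tested.

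Genes that act with or upstream of Hox proteins were mixed. Of 9 TALE cofactors, the homeodomain partners that bind DNA with Hox proteins, 6 rose, 2 fell and 1 did not pass in iGABA against MEF. Meis2 went from 71.9 ± 3.27 to 169 ± 6.49 CPM, and the 2 that fell were Meis1 (45.4 ± 2.78 to 12.8 ± 0.566 CPM) and Pbx3 (44.8 ± 1.01 to 11.8 ± 0.508 CPM). In GAD67, with almost no Hox transcript, 8 of the 9 were higher than in MEF and Meis2 stood at 1073 ± 24.2 CPM. Of all 18085 tested genes 7801 were higher in GAD67 than in MEF. Of 14 tested upstream regulators 7 rose and 7 fell. The retinoic acid receptor gene Rarb went from 6.02 ± 0.728 to 1.41 ± 0.402 CPM. Of the enzymes that break down retinoic acid, Cyp26b1 fell from 39.8 ± 0.633 to 2.64 ± 0.981 CPM and Cyp26a1 rose from 0.136 ± 0.129 to 0.880 ± 0.199 CPM. Cdx2 and Cdx4, which act upstream of Hox genes in the early embryo, had no count in any library.

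Of 4 tested ParaHox and Evx relatives, 2 rose and 2 fell. Gsx1 and Gsx2, ParaHox genes of the ventral forebrain, stood at 0.0796 ± 0.0431 and 0 CPM in MEF and at 128 ± 9.31 and 67.8 ± 5.91 CPM in iGABA, and at 0.132 ± 0.105 and 1.82 ± 0.177 CPM in GAD67. Head position genes were mixed. Of 9 tested, 2 rose, 3 fell and 4 did not pass in iGABA against MEF. Against GAD67, 2 were higher in iGABA, 6 were lower and 1 did not pass. Library sums over the 12 listed were 53.2 to 54.9 CPM in MEF, 2075 to 2424 in iGABA and 1111 to 1135 in GAD67. Six3, a gene of the front of the forebrain and 1 of the 6 lower, stood at 0.0428 ± 0.0101 CPM in iGABA and 159 ± 7.40 CPM in GAD67. Of 6 tested genes of spinal and hindbrain interneurons 3 rose (Gata2, Lhx5 and Pkd2l1) and 3 fell (Gata3, Tal1 and En1). Pkd2l1, a channel gene of spinal neurons at the central canal, stood at 0.235 ± 0.141 CPM in MEF and 550.1 ± 23.3 CPM in iGABA, while Pax2, Pax8 and Lbx1 stayed below the filter. Of 17 tested genes that flank the clusters 11 rose, 4 fell and 2 did not pass. Over all tested genes 42.1% rose and 39.7% fell, the background for each list compared between iGABA and MEF.

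The comparison of GAD67 with MEF gave the Hox level of the cells that conversion aims at. All 37 tested members were lower in GAD67, each by at least 16-fold (edgeR quasi-likelihood test, Benjamini-Hochberg adjusted p under 0.05). Of all tested genes 86.9% were called, 43.8% lower, and 12.2% were lower by at least 16-fold. Members other than Hoxd13 and Hoxd8 had at most 10 counts over the GAD67 libraries. They therefore passed the filter on low counts through MEF or iGABA, where they are high. The shared direction of their calls follows in part from that filter. The median log2 fold change of members was -9.10, or -8.74 with the 8 tested members that had no count in GAD67 set to their bound, against 0.00 over all genes. By cluster, medians were -9.42 for Hoxa, -8.74 for Hoxb, -9.29 for Hoxc and -9.28 for Hoxd.

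The GAD67 libraries held 47, 75 and 28 Hox counts in all, 150 together, and these were unevenly spread. No count was found for 9 members, 1 to 3 counts for 19, 4 to 10 for 8, and more than 10 for 2, Hoxd13 and Hoxd8, which were singled out after their values were seen. Hoxd13 had 16, 19 and 12 counts (0.409, 0.504 and 0.339 CPM) and Hoxd8 had 9, 16 and 6 (0.230, 0.424 and 0.169 CPM). These 2 genes held 52.0% of all Hox counts in GAD67, while the other 36 members shared 72 counts. The GAD67 level was 1.25% of the MEF level for Hoxd8, 0.856% for Hoxd13 and 0.124% for the other members summed. As a ratio of MEF to GAD67 this was 80.0 (95% counting interval 56.2 to 118), 117 (87.7 to 159) and 809 (642 to 1034). Such intervals, and limits for counts of 0, cover counting error only, because the reads carry no molecular identifiers and PCR copies count again. Hoxa13, absent from GAD67, was at least 548-fold higher in MEF.

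In iGABA against GAD67, 36 of 37 tested members were higher in iGABA, all of them by at least 16-fold (edgeR quasi-likelihood test, Benjamini-Hochberg adjusted p under 0.05). Hoxd1, with no count in either group, did not pass. Of all tested genes 80.6% were called, 41.3% higher, and 7.07% were higher by at least 16-fold. The median log2 fold change was 9.63, or 9.49 with the 7 members at 0 in GAD67 set to their bound, against 0.02 over all genes. This comparison shares its GAD67 libraries with the one above, and the same limit from the filter applies to its direction. Hoxa13 and Hoxd13, which were lower in iGABA than in MEF, were still above GAD67. For Hoxa13 this was at least 67.5-fold, and Hoxd13 stood at 8.75 ± 0.296 against 0.417 ± 0.0827 CPM (SD, n = 3).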

How the data were processed

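RNA sequencing counts were analysed for 9 libraries, 3 each of MEF, iGABA and GAD67, grouped by the labels. The authors deposited whole-number read counts per gene with the gene's position and exon length. Per the submitters' processing notes, BWA 0.7.2, featureCounts and DESeq 1.10.1 were used with mm10; neither annotation release nor strand setting is given in the sources used here. Pairs with 1 gene inside another were compared where either gene had at least 10 counts. On the same strand the inner count exceeded the outer in 0 of 272 pairs (inner gene at 10 or more in 250). The 3 same-strand pairs with equal exons had equal counts, so reads there appear to have been counted for each gene. On opposite strands the inner count exceeded the outer in 14 of 142 pairs (inner gene at 10 or more in 82). The counting was thus not blind to strand while counting every overlap. Of the Hox members 17 share exon bases with another gene of the table, 10 of them over 10%.

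Symbols came from GENCODE vM21 (35449 of 37224 genes, 95.2%). Counts were tested in R 4.3.3 with the edgeR 4.0.16 quasi-likelihood test after filterByExpr (minimum count 10, minimum total 15; 18085 genes kept) and TMM scaling, fitted to all 9 libraries, with Benjamini-Hochberg adjustment over all tested genes and calls at 0.05. The common biological coefficient of variation was 7.91%. SE was the log2 fold change divided by the square root of F. CPM use TMM-scaled library sizes, and the limit for no count in a single library, 3 counts, was 0.0717 to 0.110 CPM. The fitting script was checked on simulated data.

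The members, gene lists and comparisons were chosen with earlier results of these data known. Values in every sample are given for, in each cluster, the members with the largest and smallest change in iGABA against MEF, those highest per kb in each group, every member that fell in iGABA and any with a mean of at least 0.5 CPM in GAD67 (none). Ratios between members within a library were chosen after seeing values. Alternatives were DESeq2 size factors, library size alone, the DESeq2 1.42.0 Wald test, no low-count filter, a fit of only the groups compared, leaving out each library, and members without an opposite-strand gene or, added after seeing the data, without shared exon bases. No batch is recorded in the labels. Promoter windows were the 250 bases before RefSeq starts in GRCm38.p6. Some genes are not reported here by name.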

Additional observations from a re-analysis of the deposited data

How the results depend on the processing

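For iGABA against MEF, DESeq2 size factors, the DESeq2 Wald test, no low-count filter, a fit of the groups compared and each of the 9 fits that left out a library called the same 32 Hox members, 21 higher and 11 lower. The median over members ran from 0.42 to 0.54 in the fits that left out a library. Library size alone lost Hoxc8 and gained Hoxa3, Hoxd8 and Hoxd11, and moved the Hox medians to 0.90 for iGABA against MEF, -8.88 for GAD67 against MEF and 9.82 for iGABA against GAD67. The summed Hox level became 508.6 CPM in MEF and 871 CPM in iGABA. Medians became 1.25 for anterior, 1.74 for central and -0.15 for posterior members, and 0.47 for Hoxa, 1.93 for Hoxb, 1.01 for Hoxc and 0.33 for Hoxd, the last with its sign turned over. Single members that reversed were Hoxb13 (0.21), Hoxd8 (0.37) and Hoxd10 (0.29) with library size alone, and Hoxa3 (-0.0024) and Hoxb13 (0.12) without MEF replicate 3. Fits that left out a library ranged from -0.0024 to 0.13 for Hoxa3 and from -0.56 to 0.12 for Hoxb13. The cause was not tested. Of the 37 tested members, 31 had no change of call or direction in any of the 14 alternatives.

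In GAD67 against MEF and iGABA against GAD67 the fits kept 37 and 36 Hox members called. The DESeq2 Wald test gave medians of -9.36 and 9.86. Leaving out each library gave -9.56 to -8.99 and 9.49 to 9.66, with -9.56 without GAD67 replicate 8, the library with 75 of the 150 Hox counts. Among the 24 tested members with no opposite-strand gene in their span, 21 were called in iGABA against MEF (12 higher), 24 of 24 lower in GAD67 against MEF and 23 higher in iGABA against GAD67. Among the 20 that share no exon bases (chosen after seeing the data), the numbers were 18 (10 higher), 20 and 19. These counts are smaller because fewer members enter.

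No paired analysis was possible because the labels number the samples 1 to 9 and the groups share no number. At 3 libraries a group and 150 Hox counts in GAD67, levels of single members in GAD67 were not resolved beyond Hoxd13 and Hoxd8, and changes of Hoxb13, Hoxd8, Hoxd10, Hoxd11 and Hoxa3 smaller than their intervals were not detectable.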
